A study of Mus musculus with 4 samples.

Results

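The regions described here are stretches of the mouse autosomes that were called accessible after trichostatin A (TSA) treatment in young and in old mdx mice, and in neither of the untreated controls of those ages. They were chosen by the authors' region calls in all 4 libraries: touching or overlapping regions were joined, and a joined region was kept when it overlapped both TSA lists and neither control list. This left 8510 regions of 163967 joined regions on the 19 autosomes (5.19%, 95% exact Clopper-Pearson interval 5.08 to 5.30%). Intervals in this text reflect counting error alone, with regions taken as independent.

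The cells were fibro/adipogenic progenitors (FAPs) sorted from hind limb muscle of C57BL/6 mdx mice, which lack dystrophin, and all 4 groups carried that background. Both ages, young and old, had a control group and a TSA group, with 1 library each. TSA was injected daily for 15 days at 0.5 mg per kg per day, and the controls received saline according to the protocol, although their treatment field reads none. The sources used here do not give the ages in weeks, the sex of the mice or the number of animals behind a library. The sort took Sca-1+ cells and left out cells with Ter119, CD45, CD31 or α7 integrin. Whether the libraries bear the marks of FAPs at marker genes was not analysed here, because the positions were read as build mm9 and the gene table at hand is of GRCm38. For the same reason no gene and no sequence is given for a region.

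FAPs are resident mesenchymal cells of muscle that help satellite cells repair damaged fibres and that turn to scar or fat tissue when repair fails. Histone deacetylases remove acetyl groups from histone tails, and acetylated nucleosomes are associated with looser, more accessible chromatin. TSA blocks the zinc-dependent deacetylases. The question here is which regions were called with TSA at both ages and without TSA at neither. NA-seq reads accessibility through a restriction enzyme that cuts the DNA of intact nuclei where it can reach its site. Here that enzyme was NlaIII, with the site CATG, or HpaII, with the site CCGG, which HpaII does not cut when the CpG in it is methylated. A stretch without such sites cannot be called, and a region absent from a list was not called, which does not show that it was closed.

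The lists gave a start and an end per region and no count or score, so the depth behind a call is unknown and no test between treatments could be made with 1 library per group. The young control list was the shortest, with 42904 autosomal regions, against 79375 in young TSA, 95128 in old control and 85889 in old TSA. A short control list leaves more regions without a control call. How much of the TSA-only class comes from list length was not tested.

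TSA-only regions made up 19.2% (18.9 to 19.6%) of the 44249 autosomal regions called in both TSA libraries. The reverse class, called in both controls and in neither TSA library, held 2417 regions, a ratio of 3.52 TSA-only regions to each control-only region. The ratio was 8.49 among regions of at least 1900 bp in all 4 lists, and it turned to 0.295 where only the TSA lists were limited to that width, which shortens 1 side only. Among all pairs of libraries the class was the third in size. Old control with old TSA shared 11916 regions that the young libraries lacked, and young TSA with old control shared 8970. The remaining pairs were young control with young TSA at 3470 and young control with old TSA at 2292. Regions shared by both TSA libraries alone were thus fewer than those shared by young TSA and the untreated old library alone. The old control list was also the longer partner, with 95128 autosomal regions against 85889 in old TSA. The part of list length in this order was not tested, and calls in single libraries have no replicate check.

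**Figure D1:**
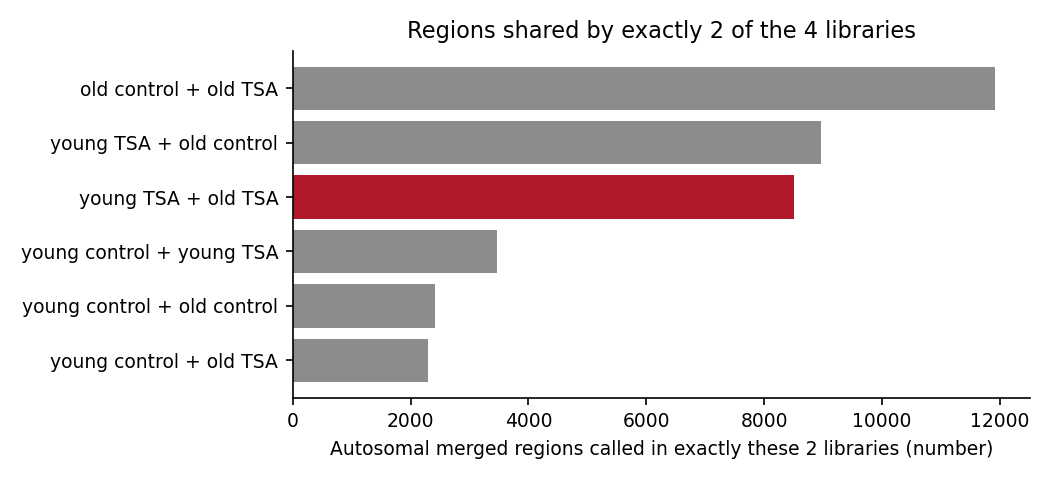
Number of autosomal merged regions called in exactly 2 of the 4 libraries, 1 bar per pair, with the TSA-only class in red. The 3 pairs without the young control hold 8510 to 11916 regions and the 3 pairs with it hold 2292 to 3470.

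The count depended strongly on the old control. With the old control left aside, 26425 regions were called in both TSA libraries and not in the young control. With the young control left aside, 11845 were called in both TSA libraries and not in the old control. Most regions that would pass as common TSA gains against the young control were therefore called in untreated old cells.

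Calls in young TSA were less often repeated in old TSA where the controls had no call. Of 26790 young TSA regions without any control call, 8510 (31.8%, 31.2 to 32.3%) were also called in old TSA. That share was 48.8% for young TSA regions called in the young control alone, 66.5% for those called in the old control alone and 83.9% for those called in both controls. Seen from the old side, 26.5% (26.0 to 27.0%) of 32087 old TSA regions without a control call were called in young TSA, against 59.0%, 59.9% and 86.9% in the same order. Regions free of control calls were thus the least shared between the TSA libraries, with 18280 of them called in young TSA alone and 23577 in old TSA alone. The joining itself favours this order, because a control call can link TSA calls that do not meet. Without a control call the TSA calls must touch or overlap each other. The size of this effect was not tested. In control libraries, 18.0% (17.4 to 18.7%) of the young control regions without a TSA call recurred in the old control, and 6.87% (6.60 to 7.13%) of the old control regions without a TSA call recurred in the young control.

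In 8417 of the 8510 regions each library contributed 1 call. The start and the end were both the same in 1770 of these 8417 (21.0%, 20.2 to 21.9%), the start alone in 1793, the end alone in 1695 and neither in 3159 (37.5%). Over all 8510 regions, identical ends were found in 20.8% (19.9 to 21.7%), against 18.8 to 19.9% in the 3 other largest pairs of libraries. That interval overlaps those of old control with old TSA (19.1 to 20.5%) and young control with young TSA (18.6 to 21.3%). It lies above that of young TSA with old control (18.0 to 19.6%). The smallest pairs stood lower, at 11.3% for control-only regions and 12.7% for young control with old TSA. The young call lay inside the old one in 2659 and the old call inside the young one in 2403. The young call was wider in 3020 regions, the old call in 3263, and the widths were equal in 2134.

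The median part shared by both calls was 76.9% of the sequence covered by either, the highest median of the 6 pairs of libraries. For the other pairs it ran from 64.7% for control-only regions to 73.7%. Calls that covered at least 50% of each other were found in 91.2% (90.6 to 91.8%) of the TSA-only regions, in 89.6% of the regions of old control and old TSA, in 89.3% of those of young TSA and old control and in 88.8% of those of young control and young TSA. Control-only regions had the lowest share of the 6 pairs, 83.5% (82.0 to 85.0%). Since the rule required the 2 TSA calls to meet, and wider calls meet more easily, these values describe the class.

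Their median width was 1900 bp, against 1800 bp for all autosomal joined regions, with a lowest of 1000 bp and a highest of 7200 bp. Together they covered 16.2 Mb, of which 11.4 Mb lay in both TSA calls. The stretch covered by both calls had a median of 1300 bp and reached 5400 bp. A width of exactly 1900 bp was found in 3321 regions (39.0%). Of the 1770 regions with the same ends at both ages, 967 were exactly 1900 bp wide. Among young TSA calls, the median width was 1300 bp in regions called in young TSA alone, 1600 bp in TSA-only regions and 1900 bp in regions called in all 4 libraries. Old TSA calls had medians of 1300, 1700 and 1900 bp in these classes. Calls over 1900 bp made up 8.48% of the young TSA calls in TSA-only regions against 43.8% in regions called everywhere. The old TSA shares were 8.51% and 36.8%. In both libraries the TSA-only calls therefore lay between the calls of 1 library and the calls of all 4 in width. Other pairs of libraries did so too. Young TSA calls had medians of 1600 bp in regions shared with the old control alone and 1700 bp with the young control alone. Old TSA calls had 1600 bp and 1500 bp in the same order.

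The authors' differential lists compare TSA with control within an age, from the same libraries as the rule, so their overlap with the TSA-only regions is given as a description. The young list higher in TSA was overlapped by 638 of the 8510 regions (7.50%, 6.95 to 8.08%), where 5.00% of all autosomal joined regions did so. The old list of that kind was met by 636 (7.47%, 6.92 to 8.05%), against 2.10% of all joined regions. Both lists were overlapped by 78 (0.917%, 0.725 to 1.14%), against 0.207% of all joined regions. Among regions called in both TSA libraries, the background for both lists was 0.766%, within that interval, and among regions called in all 4 libraries it was 0.920%. The single-list shares depended on the controls and on width. Without the old control, 15.1% of the regions were in the young and 3.81% in the old list, and among regions of at least 1900 bp in all 4 lists the young, old and both shares were 16.6%, 10.4% and 2.31%. With that width required in the TSA lists alone they were 17.8%, 14.3% and 3.43%. The remaining 7314 (85.9%, 85.2 to 86.7%) were in neither list. Being unlisted does not set these regions apart, because most joined regions were unlisted too. Of all 163967, 8203 were in the young list, 3444 in the old list and 339 in both. TSA-only regions were listed more often, with 14.1% in at least 1 list. Their share in each list, 7.50% and 7.47%, lay above the 5.00% and 2.10% of all joined regions. The exact share in neither list was not computed over all joined regions. None of the 8510 overlapped a list higher in control, as the absence of control calls nearly requires, where 0.274% of all joined regions overlapped the young and 2.56% the old list of that kind.

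Regions that an age's TSA library called and its control did not are the closer background. Of 53528 such regions in young mice, 10.4% were in the young list. Of 37682 in old mice, 6.49% were in the old list. The TSA-only regions lay below the first value and above the second. Regions called in every library but the young control were in the young list in 18.8% (18.2 to 19.4%) of cases, while regions called in young TSA and old control alone stood at 7.48%, close to the TSA-only regions. In the old list, the 7.47% of the TSA-only regions stood beside 6.10% for regions of old TSA alone, 5.85% for those shared with the young control alone and 7.21% for those called everywhere but in the old control. The last value has an interval of 6.35 to 8.14% and overlaps that of the TSA-only regions.

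**Figure D2:**
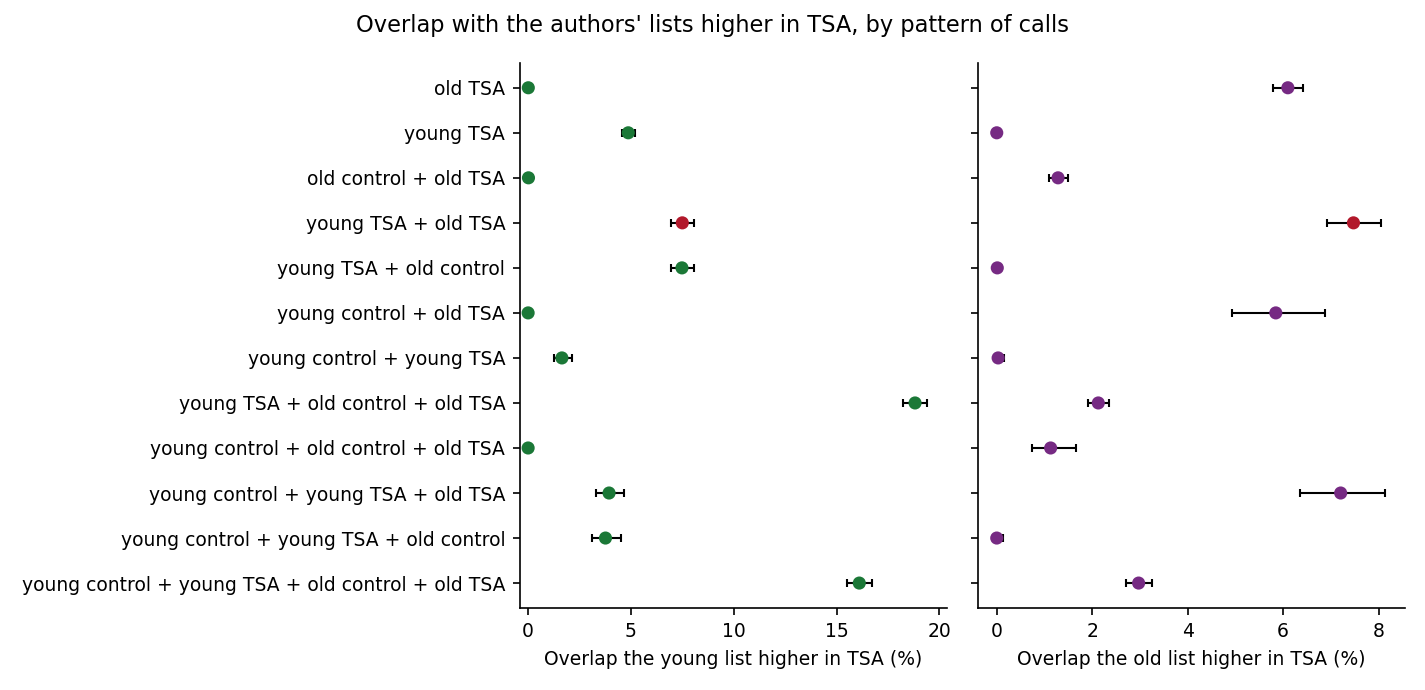
Share of autosomal merged regions that overlap the authors' young (left) and old (right) list higher in TSA, by the libraries that called the region, with 95% exact binomial intervals that cover counting error only. TSA-only regions (red) stand at 7.50% and 7.47%, and the highest share in the young list, 18.8%, belongs to regions missing from the young control alone.

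Seen from the lists, TSA-only regions were 7.78% (7.21 to 8.38%) of the 8203 joined regions in the young list and 18.5% (17.2 to 19.8%) of the 3444 in the old list. Of the 339 joined regions in both lists, 78 were TSA-only, 108 were missing from the young control alone, 18 from the old control alone, and 135 were called in all 4 libraries. The 78 were 23.0% (18.6 to 27.9%) of the 339, all of which were called in both TSA libraries. That interval holds the 19.2% that TSA-only regions made up of all regions called in both TSA libraries. A control call in most of the 339 is thus near what regions called in both TSA libraries had in general.

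Among TSA-only regions, being listed at one age went with being listed at the other. Of the 636 in the old list 12.3% (9.82 to 15.1%) were in the young list, and of the 7874 not in the old list 7.11% (6.55 to 7.70%). Width moved with this. Regions in both lists had a median width of 2050 bp and a median stretch in both calls of 1900 bp, against 1900 bp and 1200 bp for regions in neither list. The part of width in the link between the ages was not tested.

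The share in the lists was higher where the stretch in both calls was longer. With a stretch of 1000 to 1400 bp, which 4430 regions had, 4.72% were in the young list and 5.03% in the old. With exactly 1900 bp, in 1319 regions, the shares were 18.5% (16.4 to 20.7%) and 13.3% (11.5 to 15.2%). In the 168 regions with 2000 bp or more they were 23.8% (17.6 to 31.0%) and 19.6% (13.9 to 26.5%), and 12 of these 168 were in both lists. With stretches of 900 bp or less, 0 of 757 regions were in both lists, with an exact upper limit of 0.486%. A count of 3 would be a share of 0.396%.

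**Figure D3:**
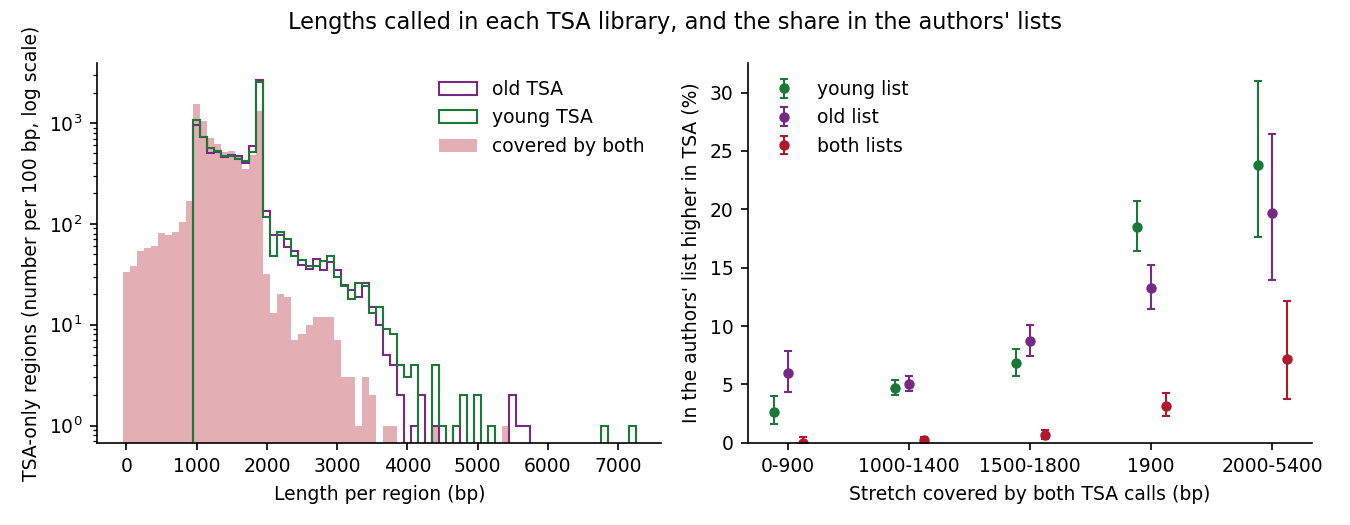
Left, length called per TSA-only region in young TSA and old TSA and length covered by both, in steps of 100 bp on a log scale. Right, share of TSA-only regions in the authors' lists higher in TSA by the stretch covered by both calls, with 95% exact binomial intervals: the young share runs from 2.64% at 0 to 900 bp to 23.8% at 2000 bp or more.

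The 78 regions in both lists are those for which the calls and the authors' comparison gave a TSA gain at both ages. In 75 of them the stretches listed for the 2 ages overlapped, by a median of 1100 bp, and in 8 the listed stretches had the same start and end. In the other 3 they lay apart within the same region. The identical start and end of the calls themselves was found in 28 of the 78 (35.9%, 25.3 to 47.6%), against 20.3% (19.4 to 21.2%) of the regions in neither list. The share was 27.5% (23.8 to 31.4%) in the young list only. In the old list only it was 18.5% (15.3 to 21.9%), no higher than in neither list. Chromosome 4 held 12 of the 78, or 1.98% (1.03 to 3.44%) of its TSA-only regions, and every other autosome held 1 to 7. The interval of chromosome 4 lies just above the share over all autosomes, 0.917%, but chromosome 4 is the highest of 19 and the interval is not adjusted for that.

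The regions in both lists with the longest stretch in both calls were the following. On chromosome 8, the region from 121200301 to 121205800 had a call of 4400 bp in young TSA and of 5500 bp in old TSA. The closest control regions lay 40300 bp away in the young and 10900 bp away in the old library. Its listed stretches were 1000 bp in young and 1300 bp in old mice and did not overlap each other. The TSA calls thus agreed on the region while the 2 comparisons marked different parts of it.

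A region on chromosome 1 from 135788601 to 135792300 had calls of 3700 bp in young TSA and 3500 bp in old TSA. Both controls had a region as close as 600 bp, and the listed stretches shared 100 bp. The region on chromosome 7 from 108593201 to 108597300 had calls of 3300 bp and 3900 bp, and its listed stretches shared 1700 bp. An old control region ended or began 100 bp from it, while the closest young control region was 9600 bp away. Both regions therefore lie near sequence that was called without TSA.

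On chromosome 3, the region from 121242501 to 121246300 had 2 calls in each TSA library, of 3100 bp in young and 3700 bp in old mice in all. Its listed stretches, 1300 bp in young and 1000 bp in old mice, did not overlap. On chromosome 13, the region from 93243201 to 93246000 had calls of 2800 bp and 2700 bp. There the same 1100 bp, from 93244101 to 93245200, were listed at both ages, and the closest control regions lay 6500 bp (young) and 1300 bp (old) away. This was the only one of these 5 regions with the same listed stretch at both ages.

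Long calls alone did not place a region in the lists. The longest stretch in both TSA calls, 5400 bp, lay on chromosome 2 from 163623501 to 163630500. Young TSA had 2 calls of 6800 bp in all there and old TSA 1 call of 5600 bp, with no control region within 9300 bp, and the region was in neither list. On chromosome 12, the region from 113732301 to 113738000 had 3800 bp called in young TSA and 5700 bp in old TSA, with an old control region 400 bp away. A second region of chromosome 12, from 107383501 to 107387100, had calls of 3600 bp and 3400 bp, and the closest control region lay 5700 bp away.

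Both TSA libraries had an identical call of 3400 bp on chromosome 8, spanning 72408601 to 72412000, with control regions 500 bp (old) and 1300 bp (young) away. On chromosome 9, the region from 107615101 to 107618900 had calls of 3800 bp and 3400 bp with no control region within 17600 bp. The widest TSA-only region of all, on chromosome 15 from 79904801 to 79912000, combined a young call of 7200 bp with an old call of 1500 bp. It too was in neither list. Width at 1 age thus came with a call of ordinary width at the other in that region.

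At the limits of the rule, 33 regions were kept although their TSA calls only touched, the first being on chromosome 1 from 94418001 to 94421100. A further 38 had calls that shared 100 bp, such as the one from 94648501 to 94652200 on the same chromosome. In 140 regions the closest control region lay 100 bp away. Just outside the rule, 41 regions called in both TSA libraries were left out for a control call that touched without overlap, such as chromosome 1 from 120902101 to 120905100. Another 183 regions of young TSA alone had an old TSA region 100 bp away.

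The gap to the closest region of either control had a median of 4200 bp, a lowest value of 100 bp and a highest of 142700 bp. A control region lay within 1 kb of 1439 regions (16.9%, 16.1 to 17.7%) and within 5 kb of 4671 (54.9%, 53.8 to 55.9%). The closest control region was an old one in 6128 cases and a young one in 1823, and both lay equally far in 559. Median gaps were 5300 bp to the old control and 12800 bp to the young control, the longer list having the shorter gap. The share within 5 kb was 25.9% with the old control left out of the rule and of the gap, and 49.1% with the young control left out. In the other pairs of libraries, the share of regions within 5 kb of a library that lacked them ran from 40.0% for old control and old TSA to 57.8% for young control and young TSA, with 49.9% (47.9 to 51.9%) for control-only regions.

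**Figure D4:**
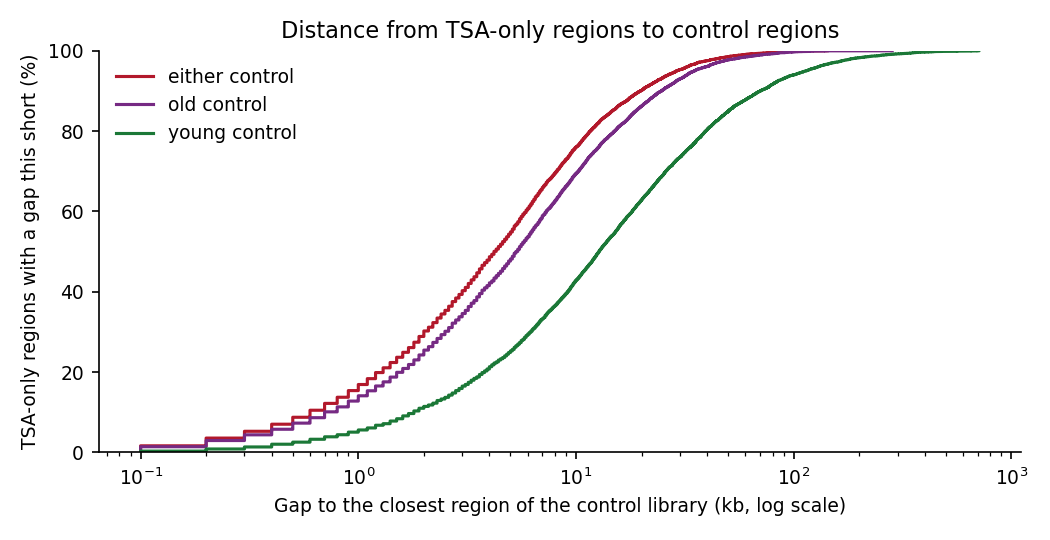
Cumulative share of the TSA-only regions by the gap to the closest region of the young control, the old control or either, on a log axis in kb. Within 5 kb, 54.9% of the regions have a region of either control, 48.2% one of the old control and 25.3% one of the young control.

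Distance from the controls went with small differences in the lists. Of the TSA-only regions within 1 kb of a control region, 8.48% (7.09 to 10.0%) were in the young list and 9.31% (7.86 to 10.9%) in the old list. Of those farther than 10 kb, 7.37% (6.27 to 8.59%) and 6.24% (5.23 to 7.38%) were listed. The intervals overlap for the young list and not for the old list, and the largest share was in each case found close to a control region.

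The TSA-only regions were spread over all autosomes in near proportion to the joined regions. Their share of the joined regions ran from 4.40% (3.99 to 4.83%) on chromosome 3 to 5.83% (5.30 to 6.39%) on chromosome 12. Of the regions called in both TSA libraries, they were 17.4% (16.0 to 18.9%) on chromosome 8 and 21.8% (19.9 to 23.6%) on chromosome 12, the lowest and highest values. Chromosome 11 had the highest density, with 4.50 per Mb of the span with regions, and chromosome 3 the lowest, with 2.66 per Mb.

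**Figure D5:**
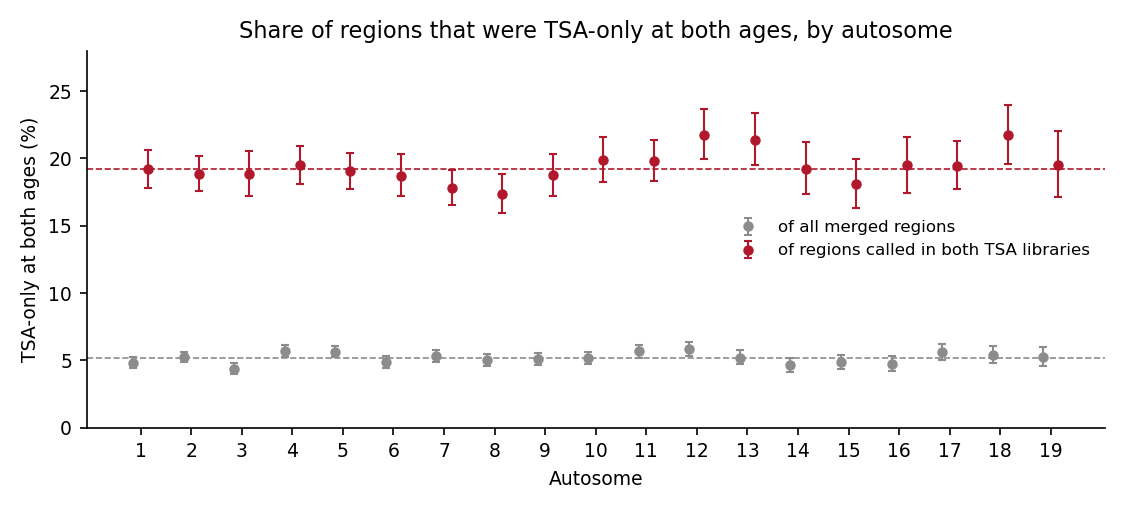
Share of TSA-only regions among all merged regions (grey) and among regions called in both TSA libraries (red) for each autosome, with 95% exact binomial intervals, and the value over all autosomes as a dashed line. The grey points run from 4.40% to 5.83% and the red ones from 17.4% to 21.8%.

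Each chromosome's span was divided into 10 equal parts. The last part held 1297 TSA-only regions against 654 in the first, which lies at the end where mouse autosomes carry the centromere. All joined regions rose in the same way, from 13238 to 22757, so that the TSA-only share was 4.94% in the first and 5.70% in the last part. Of the regions called in both TSA libraries it was 20.8% (19.4 to 22.2%) in the first and 17.3% (16.5 to 18.2%) in the last part. The distal ends thus held more TSA-only regions in number but a smaller share of what both TSA libraries called.

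In windows of 1 Mb the median was 3 TSA-only regions, over 2413 windows with any joined region, and 124 windows held 10 or more. The most, 20, lay on chromosome 4 between 153 and 154 Mb, where 184 joined regions and 89 regions called in both TSA libraries were found. The window of chromosome 11 between 120 and 121 Mb followed with 17 and that of chromosome 5 between 36 and 37 Mb with 16. In these 3 windows the TSA-only share of the joined regions was 10.9% (6.77 to 16.3%), 12.7% (7.57 to 19.5%) and 9.70% (5.64 to 15.3%). Over all autosomes it was 5.19%. Of the regions called in both TSA libraries, 20 of 89, 17 of 66 and 16 of 79 were TSA-only there. That share was 19.2% over all autosomes. The 3 windows were picked as the highest of all windows.

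TSA-only regions did not stand beside each other more often than their number gives. Of the 17018 immediate neighbours on either side, 872 (5.12%, 4.80 to 5.47%) were TSA-only themselves, where 5.19% of all joined regions were. Neighbours called in a control made up 69.8% (69.1 to 70.5%), against 69.3% of all joined regions. Neighbours called in all 4 libraries, 9.68% (9.24 to 10.1%), were slightly more frequent than such regions as a whole, 8.95%. Another TSA-only region lay within 50 kb in 41.9% (40.9 to 43.0%) of cases, close to the 41.6% (40.6 to 42.7%) of the 8970 regions of young TSA and old control, a class of similar size.

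Runs without another kind of region between them were short. A single TSA-only region stood between others in 7662 cases, 2 followed each other in 390, 3 in 20 and 4 in 2. One run of 4 spanned 128241301 to 128260800 on chromosome 2, and the other spanned 43916801 to 43967000 on chromosome 13. The first fell in a stretch of 52.1 kb without any control call, from 128220201 to 128272300, that held 5 TSA-only regions and 1 other. The second fell in such a stretch of 90.3 kb, from 43882001 to 43972300, with 4 TSA-only regions and 1 other. These 2 stretches, and another on chromosome 2 from 121172301 to 121244200 with 4, were the only ones between neighbouring control regions with more than 3, and they were picked after their values were seen.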

How the data were processed

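NA-seq was made from sorted FAPs in 4 libraries, 1 per group. Reads were handled with Bowtie 0.12.7 and build mm9, per the submitters' processing notes. The authors deposited 8 lists of regions, 4 of called regions and 4 of regions higher in 1 treatment of an age, with a chromosome, start and end per region and no count, score or p-value. The direction of a differential list was assumed from the sample that carries it, whose calls overlapped 99.8% of the list in the lowest of 4 cases. For that direction, the caller, its threshold and the test behind the differential lists, nothing is given in the sources used here. All ends are multiples of 100 bp, and starts are printed counting from 1.

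Regions of the 4 library lists that touched or overlapped were joined, on autosomes only. Overlap with a differential list needed 1 bp. The shared part is the length in both calls over that in either. Intervals are exact binomial at 95%. No test was planned or run, since each group has 1 library. Python 3.11.15, numpy 2.4.6, scipy 1.17.1 and matplotlib 3.10.9 were used, and the functions were tested on simulated data by brute force.

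The regions and comparisons were chosen with earlier results of these data known. Named regions are the 5 in both lists higher in TSA and the 5 in neither with the longest stretch in both TSA calls, the widest region, those at the limits of the rule and the densest windows. Gene annotation, gene lists and sequences were not used here, for want of an mm9 reference.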

Additional observations from a re-analysis of the deposited data

Results flagged for a closer look

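Chromosome X lies outside the autosomal regions described above. It held 80 regions called in both TSA libraries and in neither control, against 41 called in both controls and in neither TSA library, a ratio of 1.95, below the autosomal ratio of 3.52. It is listed only because it lies outside the autosomes and holds more TSA-only than control-only regions. With 1 library per group the difference was not tested. These 80 were 2.46% (1.95 to 3.05%) of the 3258 joined regions of that chromosome, below the 5.19% of the autosomes, and 22.2% (18.0 to 26.8%) of the 361 that both TSA libraries called there. The second share has an interval that holds the autosomal value of 19.2%. Chromosome Y and the mitochondrial genome held 0 such regions among 19 and 3 joined regions.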

How the results depend on the processing

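The results given as totals or medians over the TSA-only regions were recomputed under 8 other settings, and a value counted as unmoved within its 95% interval (for counts and ratios, within 1.5 times). Unless stated, a setting moved no other such result. Where the TSA calls had to cover 50% of each other, 8 of 11 results were unmoved, and the class was 4.73% of the joined regions, with a median shared part of 78.9% and 38.5% having another within 50 kb. Joining regions up to 500 bp apart gave 17.9% of the regions called in both TSA libraries, a median shared part of 73.7%, 49.8% with a control region within 5 kb and 38.5% with another TSA-only region within 50 kb. Joining up to 1 kb gave 5.01% of the joined regions, 16.8% of those called in both TSA libraries, a shared part of 72.2%, 44.7% within 5 kb of a control region and 35.3% within 50 kb of another. Keeping regions over 1 kb from the lists that lack them gave 4.31%, 16.0%, 45.7% and 34.9% for the shares of joined regions, of regions called in both TSA libraries, near a control region and near another.

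Of regions of 1900 bp or more in all 4 lists, 4414 were TSA-only (5.65% of the joined regions, 21.0% of those called in both TSA libraries), and the ratio to control-only regions was 8.49. Their young, old and both list shares were 16.6%, 10.4% and 2.31%, the median width 2000 bp, the shared part 95%, and 37.0% and 32.7% lay near a control region and near another. With that limit in the TSA lists alone, 1776 remained (1.39% and 8.43%), and the ratio turned to 0.295, as the setting shortens 1 side only. The list shares were 17.8%, 14.3% and 3.43%, the shared part 100%, and 57.8% and 15.0% lay near a control region and near another.

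Without the young control, the class was 7.72% of the joined regions and 26.8% of those called in both TSA libraries, 6.50% were in the young list, and 49.1% and 53.5% lay near a control region and near another. Without the old control there were 26425 (20.0% and 59.6%), the list shares were 15.1%, 3.81% and 0.700%, the shared part 79.2%, and 25.9% and 76.5% lay near a control region and near another. The ratio to control-only regions has no value in the last 2 settings. The cause of these moves was not tested beyond what each setting fixes by construction. No paired analysis was possible because the lists hold no values per region to fit, and each group has 1 library. Depth is unknown, so a missing call may be a shallow one.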
